A study of Saccharomyces cerevisiae with 21 samples.

Results

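The comparison of *cue2Δ dom34Δ ski2Δ* with *dom34Δ ski2Δ* asked which ribosome-protected fragments (RPFs) on a no-go decay reporter change when budding yeast lose Cue2. The 4 libraries were those labelled *cue2Δ dom34Δ ski2Δ* and *dom34Δ ski2Δ* that hold monosome footprints, with replicates 1 and 2 of each strain, out of 21 samples in the series. All 4 libraries came from cells that lacked *DOM34* (YNL001W) and *SKI2* (YLR398C), carried no plasmid and held the NGD-CGA reporter, which was integrated at *ADE2* (YOR128C), is driven by the *GAL1* promoter and was induced in galactose medium before harvest at mid-log density. The strains thus differed by *CUE2* (YKL090W, chromosome XI of R64, 271878 to 273209), and the *dom34Δ ski2Δ* strain is called the control below. The tables hold reads on the reporter only, so the deletions could not be checked against reads on the deleted genes. The labels do not say whether the 2 libraries of a strain came from separate cultures, and the tests then measure only the spread between these libraries, which may be technical.

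In no-go decay, a ribosome that stalls inside an open reading frame is run into by the ribosomes behind it. An endonuclease then cuts the mRNA within a ribosome that has run into another, in its A site. Cue2 is the yeast protein with an SMR domain that cuts mRNA at collided ribosomes. Dom34 splits ribosomes that have halted at the end of a cut mRNA, and Ski2 is the helicase that feeds such fragments to the 3′ to 5′ exosome, so in cells without both, ribosomes parked at the cut ends are retained and can be sequenced. A ribosome whose mRNA ends inside it protects about 16 nt, and the 3′ end of that 16 nt RPF is the end of the mRNA. An intact mRNA gives a 21 nt RPF when the ribosome waits with an empty A site, and a 28 nt RPF when the A site is occupied.

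The reporter encodes GFP, a 2A sequence, a FLAG tag and *HIS3* with (CGA)12 inside it, over 1586 nt with an open reading frame from nt 1 to nt 1533. Position 0 is where the second CGA codon begins (nt 1114 of the reporter), so the tract covers -3 to 32, the part of *HIS3* before it covers -276 to -4, and the part after it 33 to 419. This *HIS3* differs in sequence from the chromosomal gene, and only 5 of the 300 possible 16 nt RPFs that end within 300 nt upstream of the tract also occur in R64. The stretch below runs from -171 to 32 (nt 943 to 1146) and is shown because all 11 windows in which 16 nt RPFs passed the test for a fall without Cue2 lie in it. Capitals mark the 11 3′ ends at which those windows peak.
Reporter from -171 to 32: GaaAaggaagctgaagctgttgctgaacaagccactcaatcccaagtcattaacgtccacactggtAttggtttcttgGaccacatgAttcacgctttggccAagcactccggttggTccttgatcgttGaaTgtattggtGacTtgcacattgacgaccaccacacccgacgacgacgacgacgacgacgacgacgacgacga
The next 6 lines show the RPFs on which the results turn: both ends that fell furthest, their neighbour that did not pass the test, the end that ranked highest without Cue2, and both 28 nt RPFs that fell. Capitals mark the last nt of a 16 nt RPF and the A-site position of a 28 nt RPF.
16 nt RPF ending at -30: gttgaatgtattggtG
16 nt RPF ending at -27: gaatgtattggtgacT
16 nt RPF ending at -24: tgtattggtgacttgC
16 nt RPF ending at 7: acacccgacgacgacG
28 nt RPF with the A site at -65: cacgctttggccaagcActccggttggt
28 nt RPF with the A site at -134: gctgaacaagccactcAatcccaagtca

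The values are rpm, the reads at a position scaled by the authors to the total of the library, and each value was a whole multiple of the value of 1 read, so reads could be counted. The libraries held 15416759 and 6833028 reads for *cue2Δ dom34Δ ski2Δ*, and 12101621 and 9096523 for the control. The 2 libraries of each strain were not the same reads deposited again: their chi-square divided by its degrees of freedom was 8.62 in *cue2Δ dom34Δ ski2Δ* and 8.404 in the control, where a value near 1 marks sampling noise. A floor of 3 reads came to 0.195, 0.439, 0.248 and 0.330 rpm, in that order, and floors and the Wilson intervals below cover counting error only. Replicate 1 of both strains was deposited in 1 table and replicate 2 in the other, and differences within each of these sets are given beside the pooled ones. A lower rpm can mean fewer reporter mRNAs or fewer such RPFs per mRNA, which cannot be told apart from rpm alone.

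Most of the 16 nt RPFs found upstream of the tract in the control were missing without Cue2. From 300 nt upstream to the end of the tract they summed to 184 and 107 rpm without Cue2, against 595 and 596 rpm in the control. The means were 146 ± 54.6 rpm and 595 ± 0.752 rpm (SD, n = 2 each), so that 24.5% of the control level was left, and the difference of log2(rpm + 1) was -2.07 (-1.68 in set 1 and -2.46 in set 2). The groups did not overlap. A two-sided exact permutation test gave p = 0.333, the smallest that 2 libraries against 2 allow.

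The stretch at -30 to -19 kept the lowest share of its control level among those summed. There, about 1 ribosome length upstream of ribosomes on the first CGA codons, 16 nt RPFs came to 48.8 and 17.1 rpm without Cue2 and to 277 and 324 rpm in the control. The log2 difference was -3.32, with 10.98% of the control level left. Farther upstream, from -303 to -31, the sums were 82.1 and 44.5 rpm against 280 and 236 rpm, a log2 difference of -2.07 with 24.5% left. In neither stretch did the groups overlap.

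More than 300 nt upstream, over GFP, the linker and the 2A sequence, the 16 nt RPFs summed to 91.9 and 48.1 rpm without Cue2 and 75.0 and 58.7 rpm in the control. Here the groups overlapped, and the sets went opposite ways (0.29 and -0.28 on the log2 scale; pooled 0.00; two-sided exact permutation p = 1). As a share of all 16 nt RPFs on the reporter, *HIS3* before the tract held 83.0% and 84.2% in the control but 50.8% and 36.7% without Cue2. GFP held 8.60% and 6.14% in the control and 24.8% and 21.2% without Cue2.

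**Figure D1:**
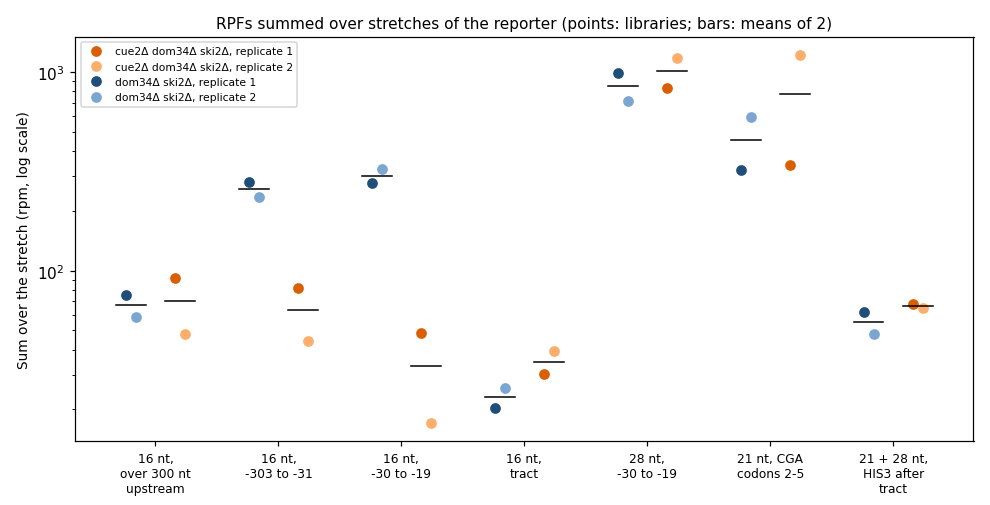
RPFs summed over 7 stretches of the reporter (rpm, log scale), with 1 point per library and a bar at the mean of 2. The 16 nt RPFs at -303 to -31 and at -30 to -19 lie lower in both *cue2Δ dom34Δ ski2Δ* libraries than in both control libraries, while those more than 300 nt upstream overlap between the strains.

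To place the change codon by codon, RPFs were summed in the 3 nt windows of the reading frame, each named by its first nt, and compared as log2(rpm + 0.1) with limma in 1 fit over 14 libraries of 8 strains. They are used here as monosome libraries, although 1, *slh1Δ dom34Δ ski2Δ* replicate 2, is labelled with fragments of 40 to 80 nt and not 15 to 34 nt. Without that library limma called 10 of the 11 windows below, losing the one at -171, and the same 2 windows of 28 nt RPFs. Windows averaging under 0.5 rpm in that fit were left out. Of the 130 that remained, 11 (8.46%) were lower without Cue2 at a Benjamini-Hochberg adjusted p under 0.05, and 0 (0%) were higher. A count test, edgeR's quasi-likelihood test on the recovered reads, called 10, all among these 11. All 11 lay in *HIS3* before the tract, where 60 windows were tested, between -171 and -27. None of 38 windows in GFP, 6 in the linker, 11 in the 2A sequence, 3 in FLAG, 4 in the tract and 7 in *HIS3* after the tract passed, nor did 1 between the 2A sequence and FLAG. Outside *HIS3* before the tract 1 window, in the linker, had an unadjusted p under 0.05, against 24 of the 60 before the tract (25 of 130 in all, 19.2%).

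Windows below the threshold also leaned one way before the tract. The median log2 difference was -1.33 over the 64 windows tested within 300 nt upstream and 0.01 over the other 66, against -0.58 over all 130. Both *cue2Δ dom34Δ ski2Δ* libraries lay below both control libraries in 46 of 130 windows (35.4%). Of these 46, 39 were in *HIS3* before the tract, among them all 11 called windows. Some of them hold few reads, because the filter took the mean of all 14 libraries. A window could thus pass through other strains alone. On the reporter, *slh1Δ dom34Δ ski2Δ* had 65627 and 52006 reads of 16 nt RPFs, against 8334 and 6127 in the control. The windows tested are therefore not a neutral sample of the reporter, which also limits the medians and counts over them. Over the 4 libraries compared, 95 of the 130 windows averaged at least 0.5 rpm, and 47 of the 60 in *HIS3* before the tract. The window at -159, for 1, held 0 and 0 rpm against 0.33 and 0.55 rpm. The opposite order was seen in 12 windows (9.23%), of which 0 were in *HIS3* before the tract, 7 in GFP, 1 in the 2A sequence, 3 in the tract and 1 after it.

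**Figure D2:**
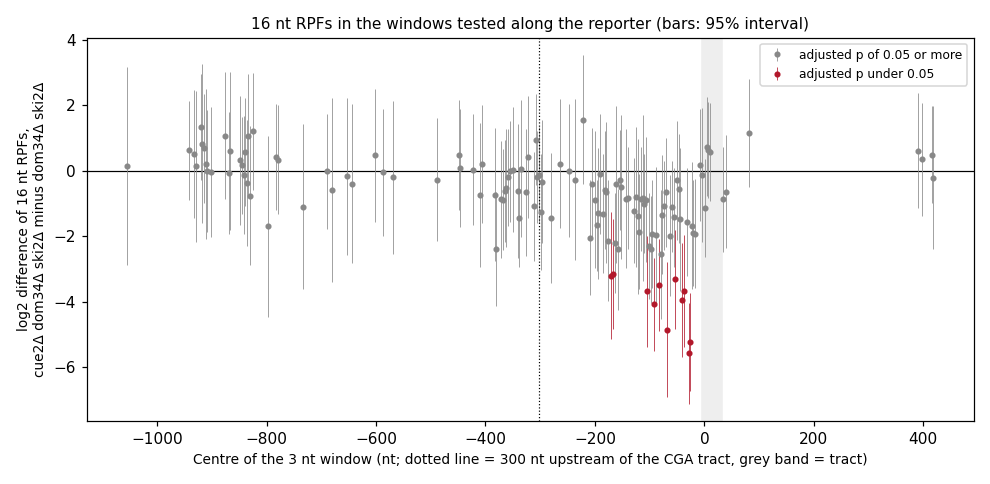
Difference of log2(rpm + 0.1) of 16 nt RPFs in each of the 130 windows tested (y axis; points, with 95% intervals as bars) along the reporter (x axis, nt). The 11 windows past the threshold, in red, all lie between -171 and the tract, and the windows more than 300 nt upstream scatter around 0.

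The 2 windows that fell furthest were neighbours, -30 and -27. Their codons are GAC (Asp) and TTG (Leu). At -30 the 3′ ends at the first nt of the codon stood at 1.56 and 2.78 rpm (24 and 19 reads) without Cue2, against 135 and 167 rpm (1633 and 1518 reads) in the control. That position ranked 1 of all 16 nt ends in the control and 17 without Cue2, at 1.44% of its control level. The window's log2 difference was -5.57 with an SE of 0.724 (limma, adjusted p = 0.000118).

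At -27 the single position held 0.84 and 1.02 rpm (13 and 7 reads) without Cue2 and 58.8 and 87.7 rpm in the control, which is 1.27% of the control level. It fell from rank 2 to rank 49, and the window's log2 difference was -5.22 (SE 0.70, adjusted p = 0.000118). Both windows passed the threshold under all 11 alternatives that were followed window by window. Those 11 do not include the fit with no filter on low windows or the one at single nt positions.

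The next 2 codons downstream did not pass the test. At -24 (CAC, His), which ranked 3 in the control, the 3′ ends at the first nt stood at 23.1 and 3.51 rpm without Cue2 and 46.1 and 40.9 rpm in the control. The 2 libraries without Cue2 thus differed by more than 6 times at this nt, with 356 and 24 reads. The window's log2 difference was -1.68 (95% interval -3.63 to 0.26, adjusted p = 0.369), and over the alternatives it ranged from -2.92 (without replicate 1 of *cue2Δ dom34Δ ski2Δ*) to -0.44 (without its replicate 2). At -21 (ATT, Ile) the position held 7.46 and 4.24 rpm against 24.4 and 21.1 rpm, and the window's log2 difference was -1.90 (95% interval -3.52 to -0.28, adjusted p = 0.147). Without Cue2 the -24 position was at 30.6% and the -21 position at 25.7% of its control level.

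The 12 nt from -30 to -19 thus changed in make-up. In the control, 95.5% and 97.8% of their 3′ ends lay on the first nt of a codon (Wilson intervals 94.8 to 96.2% and 97.2 to 98.3%). Without Cue2 the shares were 67.6% and 67.5% (64.1 to 70.8% and 58.6 to 75.3%). The end at -22, the third nt of the CAC codon, ranked 17 in the control and 4 without Cue2, with 12.7 and 1.76 rpm against 7.85 and 2.31 rpm. These groups overlapped.

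**Figure D3:**
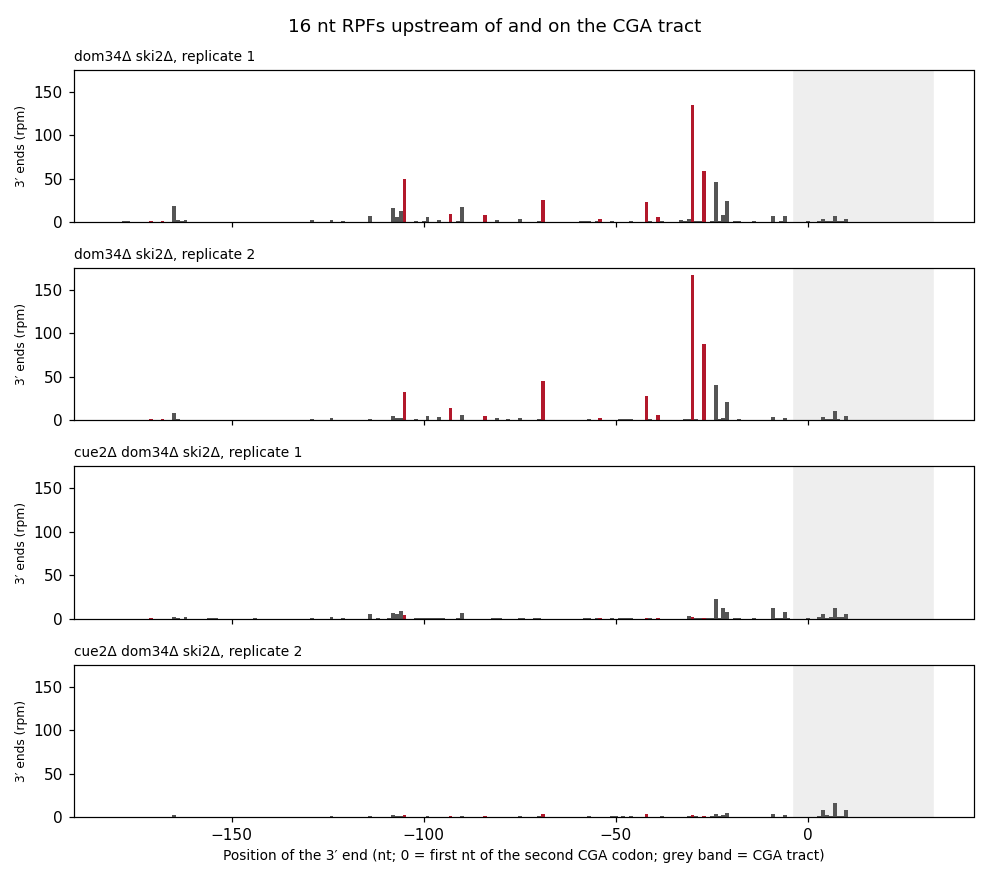
3′ ends of 16 nt RPFs (rpm, bars) at each position from -180 to 32 in the 4 libraries, with the 11 positions at which the windows past the threshold peak in red and the tract shaded. The peaks at -30 and -27 reach 135 and 58.8 rpm in control replicate 1 and stay at or under 2.78 rpm without Cue2, where a peak at -24 remains in replicate 1.

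Farther upstream 9 more windows passed the test. The highest was -105 (ATT, Ile), with 49.3 and 32.65 rpm at its first nt in the control and 4.54 and 2.05 rpm without Cue2 (window log2 difference -3.69, SE 0.795, adjusted p = 0.00481). At -69 (AAG, Lys) the position held 25.0 and 45.1 rpm in the control and 0.13 and 3.66 rpm without Cue2 (window -4.85, SE 0.972, adjusted p = 0.00399). At -42 (GAA, Glu) it held 22.9 and 27.9 rpm against 0.32 and 2.93 rpm (window -3.95, SE 0.813, adjusted p = 0.00434). At -69 and -42 replicate 2 without Cue2 lay well above replicate 1, but below both control libraries.

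The remaining 6 were lower peaks. At -93 (GAC, Asp) the control held 9.67 and 14.3 rpm and the *cue2Δ dom34Δ ski2Δ* libraries 0.13 and 0.59 rpm, and the window's log2 difference was -4.08. At -84 (ATT, Ile) the values were 8.02 and 5.28 rpm against 0 and 0.73 rpm, and at -39 (TGT, Cys) 5.78 and 5.94 rpm against 0.19 and 0.15 rpm. The groups did not overlap at any of these positions.
At -54 (TCC, Ser) the control held 3.64 and 2.53 rpm, against 0.39 and 0 rpm. At -171 (GAA, Glu) it held 1.16 and 1.65 rpm against 0.26 and 0 rpm, and at -168 (AAG, Lys) 1.24 and 1.21 rpm against 0.06 and 0 rpm. These last 2 windows are the faintest, close to the floor of 3 reads without Cue2. The window at -171 lost the call under 7 of 11 alternatives (adjusted p up to 0.341) and the one at -168 under 5 (up to 0.188). Among the same 11 alternatives, calls were also lost at -105 and -54 under 2 each, and at -84 and -39 under 1 each. In these 4 windows it was always by leaving out 1 library. The fit with no filter on low windows is not among those alternatives. It called only 4 of 528 windows, all of them called in the main fit, so most of the calls were lost there.

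All 11 called windows peaked on the first nt of their codon, so that the called ends are in frame with one another. Over -303 to -4 without -30 to -19, the first codon nt carried 80.3% and 83.9% of the 16 nt ends in the control (79.0 to 81.6% and 82.3 to 85.3%) but 58.7% and 61.7% without Cue2 (56.3 to 61.1% and 56.5 to 66.6%). This stretch still holds the other called ends, so part of the drop is their fall counted again. The shares without those ends were not computed. More than 300 nt upstream the shares were 48.2% and 46.6% in the control and 48.4% and 37.7% without Cue2. The last nt of the RPF at the called ends was A at 4, G at 4, T at 3 and C at 0 of 11, while the first nt of all 91 codons of *HIS3* before the tract was A at 29.7%, G at 35.2%, T at 17.6% and C at 17.6%. Steps between neighbouring called ends ranged from 3 to 63 nt.

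Several upstream ends that were high in the control did not pass. At -165 (GAA, Glu), rank 8 in the control, the position held 17.9 and 8.46 rpm in the control and 2.34 and 2.49 rpm without Cue2, and the window at -2.21 had an adjusted p of 0.0748. The end at -90 (CAC, His) held 16.8 and 5.94 rpm in the control and 6.68 and 0.88 rpm without Cue2. At -108 and -106, both in a GGT (Gly) codon next to the called window at -105, the positions held 16.1 and 5.17 rpm, and 12.5 and 2.64 rpm, in the control. Without Cue2 they held 6.23 and 2.20 rpm, and 9.28 and 1.61 rpm. At -90, -108 and -106 the groups overlapped, but within each set the value without Cue2 was the lower one. The log2 differences by set were -1.32 and -2.63 at -90, -1.36 and -1.20 at -108, and -0.42 and -0.68 at -106.

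Some 16 nt ends stayed near or above the control level without Cue2. The 10 highest ends of *cue2Δ dom34Δ ski2Δ* were those at 7, -24, -9, -22, 4, 10, -21, -106, -6 and -108, of which only -24 and -21 were among the 10 highest of the control. Not all of the 10 kept their level: those at -24, -21, -108 and -106 were at 30.6%, 25.7%, 39.6% and 72.0% of the control. At -9 (CAC, His) they came to 12.8 and 3.22 rpm without Cue2 and 6.78 and 4.29 rpm in the control, and at -6 (ACC, Thr) to 7.52 and 2.05 rpm against 7.19 and 2.86 rpm. From -18 to -4 the 16 nt RPFs summed to 23.3 and 6.29 rpm against 17.3 and 10.1 rpm. The groups overlapped in each of these, with replicate 1 higher than replicate 2 in both strains.

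On the tract itself the sum was higher without Cue2. The 16 nt RPFs there summed to 30.4 and 39.4 rpm without Cue2 and 20.2 and 25.7 rpm in the control, a log2 difference of 0.58 (0.56 and 0.60 by set; two-sided exact permutation p = 0.333, the smallest possible). The highest end without Cue2, at 7 in the fourth CGA codon, held 11.7 and 16.2 rpm, against 6.36 and 10.6 rpm in the control. The ends at 4 and 10 held 4.86 and 8.34 rpm, and 5.25 and 7.61 rpm, without Cue2, and 3.22 and 4.18 rpm, and 3.39 and 4.84 rpm, in the control. At all 3 ends both *cue2Δ dom34Δ ski2Δ* libraries lay above both control libraries. The windows at 3, 6 and 9 that hold them had log2 differences of 0.73, 0.63 and 0.56 and did not pass the test (adjusted p = 0.732, 0.808 and 0.808). The other tract window tested, at 0, was lower in both libraries without Cue2, with 0.32 and 0.44 rpm against 0.83 and 1.10 rpm (adjusted p = 0.460).

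Each of these ends lies on the second nt of a CGA codon, 3 nt downstream of an A site at which 21 nt RPFs peaked, which is where a 21 nt RPF with that A site ends. The 16 nt end at 7 came to 11.9% and 4.10% of the 21 nt RPFs with the A site at 4 without Cue2, and to 6.69% and 6.87% in the control. Whether these short RPFs are shortened 21 nt RPFs was not tested. Fragments of exactly 16 nt that end at 12 to 32 have copies within the tract, so few reads can be assigned to those 21 ends. *HIS3* after the tract held 22.9 and 25.5 rpm of 16 nt RPFs without Cue2 and 19.1 and 19.2 rpm in the control (log2 difference 0.32; groups did not overlap; p = 0.333 by the same exact test), and its 7 windows tested included 0 past the threshold.

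The 21 nt RPFs showed where intact ribosomes waited. Of 323 windows tested along the reporter, 0 (0%) passed the test with limma, 9 (2.79%) had an unadjusted p under 0.05, and edgeR on the recovered reads also called 0. Both *cue2Δ dom34Δ ski2Δ* libraries lay below both control libraries in 30 windows (9.29%) and above them in 48 (14.9%). The 5 highest A sites in the control, at 4, 1, 7, 10 and 0, all on CGA codons 2 to 5, were also the 5 highest without Cue2. At position 4, in the third CGA codon, 21 nt RPFs came to 98.4 and 396 rpm without Cue2 and 95.1 and 154 rpm in the control. Position 1 held 54.7 and 278 rpm against 51.7 and 170 rpm.

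Over CGA codons 2 to 5 the 21 nt RPFs summed to 341 and 1216 rpm without Cue2 and 321 and 590 rpm in the control. The log2 difference was 0.09 in set 1 and 1.04 in set 2 (pooled 0.56, two-sided exact permutation p = 0.667). Replicate 2 was the higher library in both strains, and that of *cue2Δ dom34Δ ski2Δ* was the highest of all. Without that library the log2 difference was -0.35, which sets replicate 1 of *cue2Δ dom34Δ ski2Δ* against control libraries of both sets. Of the 21 and 28 nt RPFs on these codons, the 21 nt RPFs made up 84.4% and 93.3% without Cue2 and 86.1% and 93.3% in the control. These shares differed more between the sets than between the strains.

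The 28 nt RPFs marked the ribosomes queued behind. The 2 highest A sites were the same in both strains, at -23 (CAC, His) and -20 (ATT, Ile). At -23 there were 273 and 369 rpm without Cue2 and 400 and 202 rpm in the control, and at -20 there were 224 and 315 rpm against 180 and 166 rpm. The sums at -30 to -19 overlapped, with 836 and 1179 rpm against 991 and 716 rpm (log2 difference 0.24; -0.25 and 0.72 by set; two-sided exact permutation p = 0.667). The A site at -26, rank 4 in the control, held 95.3 and 175 rpm against 130 and 139 rpm. The 16 nt RPFs that end in these same 12 nt stood at 10.98% of the control.

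Of the 446 windows of 28 nt RPFs tested, 2 (0.448%) were lower without Cue2 and 0 (0%) higher, with 16 (3.59%) at an unadjusted p under 0.05 and the same 2 called by edgeR. The 2 libraries without Cue2 lay below both control libraries in 50 windows (11.2%) and above both in 67 (15%). The larger peak lay in the window at -66, over the CAC (His) codon in which the A site at -65 ranked 3 of all 28 nt A sites in the control. At -65 there were 142 and 128 rpm (1719 and 1167 reads) in the control and 9.99 and 22.5 rpm (154 and 154 reads) without Cue2, where the site ranked 68. The window as a whole held 174 and 151 rpm against 11.9 and 26.0 rpm, a log2 difference of -3.19 (SE 0.536, adjusted p = 0.000971).

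The smaller one, at -135 (CAA, Gln), held 15.8 and 24.6 rpm in the control and 0.454 and 1.90 rpm without Cue2 (-4.23, SE 0.665, adjusted p = 0.000731), and peaked at -134. Its highest A site stood at 8.18 and 17.04 rpm against 0.06 and 0.59 rpm. Both calls were lost without *cue2Δ dom34Δ ski2Δ* replicate 1 (log2 differences -2.63 at -66 and -3.31 at -135). They were also lost with no filter on low windows, when 0 of 528 windows passed.

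At the same codon the 21 nt RPFs overlapped between the strains. At -65 they came to 4.86 and 5.71 rpm without Cue2 and 8.35 and 4.51 rpm in the control. In the window at -66 the 21 nt share of the 21 and 28 nt RPFs was 5.78% and 4.19% in the control (Wilson intervals 4.89 to 6.83% and 3.27 to 5.35%) and 34.4% and 20.2% without Cue2 (29.1 to 40.2% and 15.4 to 25.9%). A 28 nt RPF with its A site at -65 ends at -54, which is itself 1 of the 11 called 16 nt ends, and the site lies 35 nt upstream of the 16 nt end at -30. An RPF with its A site at -134 ends at -123, where the 16 nt ends were 0.06 and 0 rpm without Cue2 and 0.25 and 0 rpm in the control.

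The windows just upstream of the one at -66 did not pass the test. At -72 (GCC, Ala) the window held 17.8 and 22.7 rpm of 28 nt RPFs without Cue2 and 64.2 and 75.5 rpm in the control (-1.79, adjusted p = 0.394). At -69 (AAG, Lys) it held 9.08 and 21.4 rpm against 14.1 and 26.2 rpm. The A site at -98 (TTC, Phe), rank 5 in the control, held 45.15 and 57.2 rpm against 88.2 and 72.2 rpm, and that at -59 (GGT, Gly) 66.2 and 89.6 rpm against 44.5 and 81.4 rpm. The A sites at -89 and -83 held 67.8 and 196 rpm, and 65.0 and 119 rpm, without Cue2 and 54.6 and 98.1 rpm, and 76.0 and 63.7 rpm, in the control. Of the 15 highest A sites of the control, those at -47 (rank 6) and -41 (rank 13) were also lower in both libraries without Cue2, with 24.6 and 52.2 rpm against 71.1 and 86.4 rpm, and 20.3 and 35.7 rpm against 70.3 and 65.5 rpm. The A sites at -59, -89, -83, -47 and -41 and the windows at -72 and -69 were picked once their values were known.

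**Figure D4:**
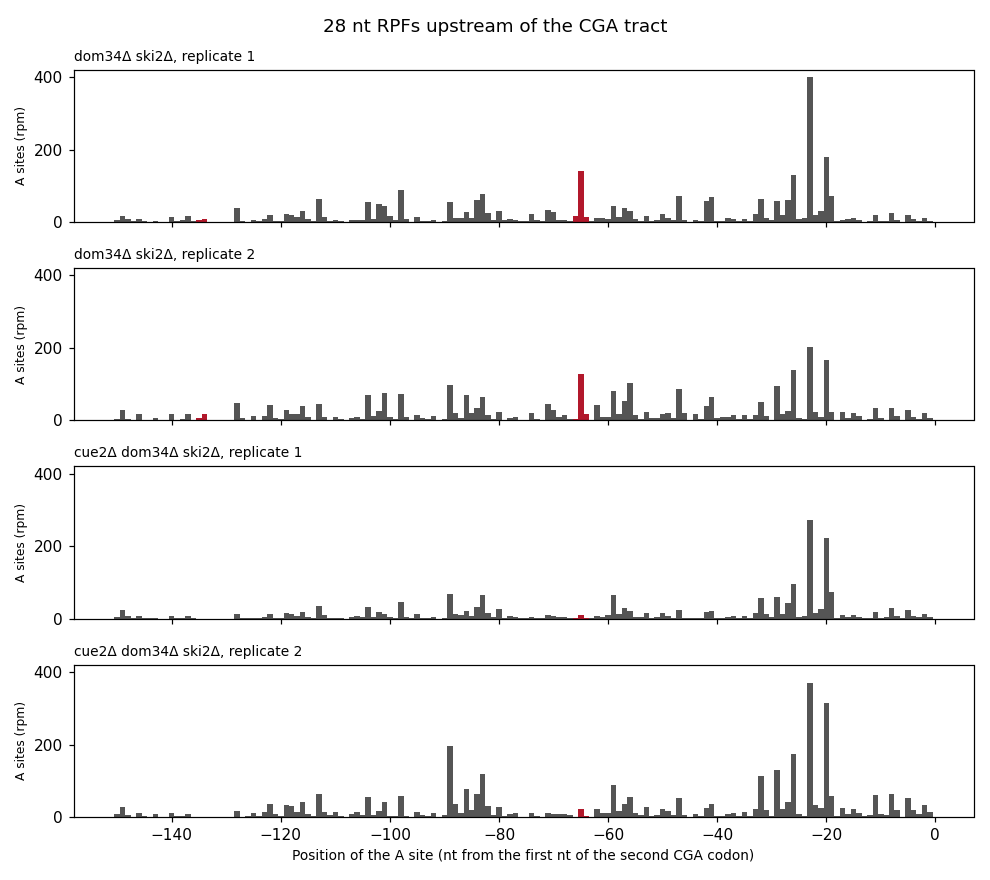
A sites of 28 nt RPFs (rpm, bars) at each position from -150 to -1 in the 4 libraries, with the windows at -66 and -135 in red. The peak at -65 stands at 142 and 128 rpm in the control and at 9.99 and 22.5 rpm without Cue2, while the peaks at -23 and -20 are the 2 highest in each of the 4 libraries.

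In the other strains of the same fit, the 28 nt window at -66 held 50.8 and 32.8 rpm in *hel2Δ dom34Δ ski2Δ*, 24.0 rpm in the single *ski2Δ* library, and 46.4 and 90.9 rpm in *slh1Δ ski2Δ*. It held 101 and 95.3 rpm in *slh1Δ dom34Δ ski2Δ*, 129 rpm where *CUE2* was deleted as well (1 library), and 179 and 171 rpm in *hel2Δ slh1Δ dom34Δ ski2Δ*, the one of these strains whose libraries overlapped the control. Hel2 is the ubiquitin ligase that marks collided ribosomes, and Slh1 is a helicase that clears them. The *cue2Δ dom34Δ ski2Δ* values of 11.9 and 26.0 rpm thus lay near that of *ski2Δ*, in which Cue2 and Dom34 are present. The 28 nt window at -72, picked once its values were known, went another way where *SLH1* was deleted. It held 1288 and 1410 rpm in *slh1Δ dom34Δ ski2Δ* and 92.7 rpm where *CUE2* was deleted as well (1 library), with 64.2 and 75.5 rpm in the control. The 16 nt window at -30 held 3.69 and 1.89 rpm in *hel2Δ dom34Δ ski2Δ* and 2.69 rpm in *ski2Δ*, close to the 2.34 and 4.10 rpm of *cue2Δ dom34Δ ski2Δ*. At -27 the *hel2Δ dom34Δ ski2Δ* and *cue2Δ dom34Δ ski2Δ* libraries overlapped as well. In every called window farther upstream both *hel2Δ dom34Δ ski2Δ* libraries were the higher ones. Those windows were called because the *cue2Δ dom34Δ ski2Δ* libraries were low in them, which favours this order. How often it occurs over all windows tested was not counted. At -105 the *hel2Δ dom34Δ ski2Δ* libraries held 17.4 and 16.7 rpm against 4.54 and 2.05 rpm, and at -42 they held 11.3 and 9.78 rpm against 0.71 and 3.66 rpm. These values are given side by side and were not tested against each other.

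Along the whole reporter, the 21 and 28 nt profiles of the 4 libraries followed one another. Across the 446 windows, Pearson's r of the 28 nt log2 values was 0.936 and 0.949 between the 2 libraries of a strain and 0.921 to 0.960 between libraries of different strains, a description over windows that share libraries and depth. For 21 nt RPFs it was 0.867 and 0.896 within and 0.858 to 0.924 between strains, over 323 windows. For 16 nt RPFs the *cue2Δ dom34Δ ski2Δ* libraries correlated at 0.618 and the control libraries at 0.862, with 0.492 to 0.675 between strains over 130 windows.

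Over GFP the strains overlapped. There the 28 nt RPFs came to 1350 and 1866 rpm without Cue2 and 1382 and 1250 rpm in the control, and the 21 nt RPFs to 467 and 775 rpm against 480 and 505 rpm. Over the 2A sequence the 28 nt RPFs were higher in both libraries without Cue2, with 403 and 435 rpm against 382 and 283 rpm. More than 300 nt upstream, 21 and 28 nt RPFs together summed to 2440 and 3526 rpm against 2514 and 2314 rpm (log2 difference 0.28; -0.04 and 0.61 by set). In *HIS3* before the tract the 28 nt RPFs came to 2641 and 4219 rpm against 3791 and 3803 rpm. Replicate 2 without Cue2 was the highest of the 4 libraries in each of these, and replicate 1 was the lowest over *HIS3*.

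In bins of 30 nt, 28 nt RPFs were lower in both *cue2Δ dom34Δ ski2Δ* libraries than in both control libraries in 3 of the 10 bins within 300 nt upstream, and higher in 0. Those 3 bins covered -213 to -184, -153 to -124 and -123 to -94. More than 300 nt upstream the counts were 0 lower and 4 higher of 27 bins. The median log2 difference was -0.28 within 300 nt upstream (-0.49 in set 1 and -0.06 in set 2) and 0.18 farther upstream (-0.05 and 0.45), so the higher values farther upstream were those of set 2. Divided by the sum that the same library had more than 300 nt upstream, the 21 and 28 nt RPFs from -303 to 32 came to 143% and 173% without Cue2 and 184% and 213% in the control, which do not overlap. As raw rpm the same sums overlapped, with 3480 and 6108 rpm against 4619 and 4930 rpm.

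**Figure D5:**
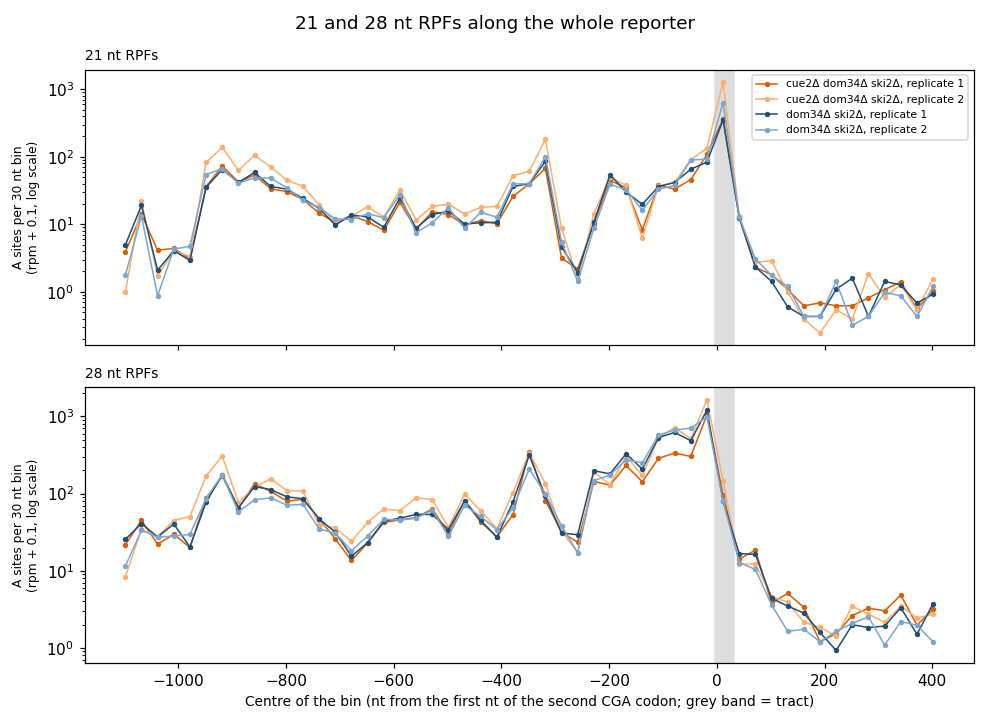
A sites of 21 nt and 28 nt RPFs (rpm + 0.1 on a log scale) in 30 nt bins along the reporter, with 1 line per library and the tract shaded. All 4 libraries rise to their highest value at the tract (21 nt) or just before it (28 nt) and drop after it, and replicate 2 without Cue2 runs highest over much of GFP.

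Few ribosomes were found past the tract. The 21 and 28 nt RPFs over *HIS3* after the tract summed to 68.1 and 65.1 rpm without Cue2 and 62.1 and 47.8 rpm in the control (log2 difference 0.28, 0.13 and 0.44 by set). The groups did not overlap, and the two-sided exact permutation test gave p = 0.333, the smallest possible. Per reporter, as above, they were 2.79% and 1.85% without Cue2 and 2.47% and 2.07% in the control, which overlap. The 28 nt RPFs were higher without Cue2 in both libraries in 6 of 12 bins after the tract and lower in 0, with differences of 0.06 to 0.69 on the log2 scale over the 12. Of the 87 windows of 28 nt RPFs and 33 windows of 21 nt RPFs tested there, 0 passed the threshold with limma, and 5 and 2 had an unadjusted p under 0.05.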

How the data were processed

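The authors pelleted polysomes, digested them with RNase I, isolated RPFs of 15 to 34 nt and sequenced them. Reads were processed with CASAVA 1.8 and STAR per the submitters' processing notes, and mapped to R64 (sacCer3) and the reporter. The deposited tables hold rpm (reads scaled to the library) at each nt, by 3′ end for 16 nt RPFs (15 to 17 nt) and by A site, 16 or 17 nt from the 5′ end, for 21 nt (20 to 22 nt) and 28 nt RPFs (27 to 32 nt).

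All values (100%) were whole multiples of 1 read within 0.1 reads, which gave the depths. Of the value columns 42 were used and 15 not, among them those of a *cue2Δ slh1Δ dom34Δ ski2Δ* library whose name fits no single sample. Sums were taken to log2(rpm + 1) and tested by exact permutation of the 4 libraries (two-sided), windows of 3 nt as log2(rpm + 0.1) with limma 3.58.1 (trend; 14 libraries of 8 strains, depths 1261876 to 15416759; mean of at least 0.5 rpm; Benjamini-Hochberg within a size class; threshold 0.05) in R 4.3.3. The alternatives were edgeR 4.0.16 (quasi-likelihood on recovered reads), other pseudocounts, filters, windows and stretches, values per reporter, a replicate block and leaving out each library; leaving out *slh1Δ dom34Δ ski2Δ* replicate 2 was added after seeing the data. The functions were tested on simulated reads. Positions named were the 10 highest 16 nt ends of each strain, the windows at -30 to -21, the windows past the threshold and the 5 highest 21 and 28 nt A sites of the control. Members, lists and rules were chosen with earlier results of these data known.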

Additional observations from a re-analysis of the deposited data

Results flagged for a closer look

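The effect of losing Cue2 was also computed where *SLH1* was deleted, and the difference of the 2 effects (*SLH1* present minus deleted) was tested with limma in the same fit, a test added after the data had been seen. With *SLH1* deleted the strain without Cue2 has 1 library of 1261876 reads, the shallowest of the 14, in which 3 reads are 2.38 rpm, and the fit assumes that it varies like the others. Of all windows, 40 of 130 for 16 nt RPFs and 33 of 446 for 28 nt RPFs passed this test, so passing it was not particular to the windows named. Of the windows named, 5 passed. For 16 nt RPFs the difference was 4.93 at -171 (adjusted p = 0.0188), 4.82 at -105 (0.0124), 5.01 at -42 (0.0124) and 5.02 at -21 (0.0109), and for the 28 nt window at -66 it was -3.59 (SE 0.847, adjusted p = 0.0114). None of the 5 passed once the windows of the lone library that lie under its floor of 3 reads were raised to that floor. The differences were then 0.30 (adjusted p = 0.936), 3.35 (0.283), 4.45 (0.15), 5.02 (0.0679) and -3.59 (0.136). At -21 and at -66 (28 nt) the lone library lay above its floor, and the differences stayed the same. Their SE hardly moved, from 1.20 to 1.18 and from 0.847 to 0.848. Those 2 calls were lost through the adjustment over all windows. At -171, -105 and -42 the lone library held 0, 1 and 2 reads. The difference at -171 came from the pseudocount, and no larger fall with *SLH1* deleted is shown in that window. At -105 and -42 most of the difference was left with the floor (3.35 and 4.45). Those values rest on 1 library that lay under its floor, so the size of the fall there is uncertain. At -21 the lone library held 7 reads (5.55 rpm), against 686 and 680 rpm in *slh1Δ dom34Δ ski2Δ*. In the 28 nt window at -66 it held 163 reads (129 rpm), against 101 and 95.3 rpm. The value at -66 does not stand for 28 nt RPFs nearby: in the window at -72 the lone library held 92.7 rpm, against 1288 and 1410 rpm. The second *slh1Δ dom34Δ ski2Δ* library is labelled with a fragment range of 40 to 80 nt, which is not that of monosome footprints. Without it, the differences at -171 and at -66 (28 nt) had an adjusted p of 0.0564 and 0.0544, and those at -105, -42 and -21 stayed under the threshold (0.0294, 0.0458 and 0.0413).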

How the results depend on the processing

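The falls of 16 nt RPFs from 300 nt upstream to the tract's end (-2.46 to -1.68), at -30 to -19 (-4.05 to -2.59) and at -303 to -31 (-2.51 to -1.64) kept their sign under every alternative run. Per reporter, the sign turned for 16 nt RPFs more than 300 nt upstream (-0.27), 28 nt RPFs at -30 to -19 (-0.044) and 21 and 28 nt RPFs within 100 nt downstream (-0.068; 0.20 as rpm). Leaving out 1 library gave -0.46 to 0.46, -0.011 to 0.49 and 0.02 to 0.38 for these, -0.46 to 0.36 for 21 and 28 nt RPFs from 300 nt upstream to the tract's end, 0.02 to 0.55 for those farther upstream and -0.35 to 1.48 for 21 nt RPFs on CGA codons 2 to 5; the cause was not tested. The 16 nt calls numbered 4 with no filter on low windows, when 528 windows were tested, and 5 to 16 with 1 library left out (5 without control replicate 1, 7 without *cue2Δ dom34Δ ski2Δ* replicate 2). Of the 28 nt calls 0 were left with no filter, and there were 4 per reporter, 4 at single nt positions and 0 to 2 with 1 library left out. Without *slh1Δ dom34Δ ski2Δ* replicate 2, left out after seeing the data, there were 10, 0 and 2 calls for 16, 21 and 28 nt RPFs. With the replicate number as a block there were 13 calls for 16 nt (all 11 among them), 0 for 21 nt and 2 for 28 nt RPFs, and the smallest p for a sum was 0.5. Same-numbered libraries deviated together (r = 0.278, 0.364 and 0.467 for the 3 sizes) over only 2 pairs, and the labels do not say that they were prepared together. With 2 libraries a strain, the median 95% interval of a window was the estimate ± 1.80 (16 nt), 1.496 (21 nt) or 1.22 (28 nt) on the log2 scale, and smaller changes were mostly not detectable.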
